A study of Mus musculus with 12 samples.

Results

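The genes described here are 6 chemokines (Ccl3, Ccl4, Ccl5, Ccl6, Ccl9 and Cxcl2), the cytokine gene Tnf and the immediate early response gene Ier3. They were taken by symbol, 8 of the 53801 genes in the deposited tables, and all 8 were among the 15119 genes with enough counts to be tested. Ier3 encodes neither a chemokine nor a tumour necrosis factor. RNA was measured in whole bone marrow of C57BL/6N mice, with 3 libraries in each of 4 groups. MI-E mice had a myocardial infarction and received EMPA, and MI mice had the infarction without EMPA. Sham-E mice had the sham operation and received EMPA, and Sham mice had the sham operation without EMPA. The protocol describes ligation of the LAD, a coronary artery that supplies the left ventricle, under isoflurane. The time after surgery, the dose of EMPA, and the age and sex of the mice are stated in none of the sources used here. No source used here says that the libraries of a group came from separate mice, so the tests measure the spread between these libraries, which may be technical.

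Chemokines are small secreted proteins that draw leukocytes along a gradient by binding receptors coupled to G proteins. Ccl3 acts through Ccr1, among others. Cxcl2 draws neutrophils through Cxcr2, a receptor that also takes part in the release of neutrophils from marrow. Tnf is made as a membrane protein, is cut free by the protease Adam17 and signals through Tnfrsf1a and Tnfrsf1b to the transcription factor NF-kB, which in stimulated myeloid cells drives Tnf, Cxcl2, Ccl3 and Ier3. Many messengers of this kind carry AU-rich elements in their 3′ untranslated regions (UTRs), where the protein encoded by Zfp36 binds and speeds their decay.

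Each library had 21175087 to 24606783 counts. The markers of marrow cell types were detected: 12 of 12 neutrophil markers summed to 33860 to 60620 CPM per library (CPM are counts scaled to a common library size), 8 of 8 erythroid markers to 4917 to 30020 CPM, and 8 of 8 B-cell markers to 1076 to 2972 CPM. Skeletal muscle markers summed to 2.38 to 9.92 CPM. In bulk tissue, fewer cells of a type and less RNA per cell cannot be told apart. The mean insert length, recovered by comparing counts with TPM values, was 280.2 to 282.7 bp in MI-E, 263.2 to 265.2 bp in MI, 271.1 to 280.3 bp in Sham-E and 284.1 to 286.9 bp in Sham. Every MI library was below every other library, so an effect of insert length and one of the MI group cannot be told apart in MI against Sham or in MI-E against MI. Libraries are named here by group and the number in their column name, such as MI-E 3.

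The promoters of Cxcl2, Ier3, Ccl3 and Tnf are shown because the results below turn in part on these 4 genes, the first 3 of which were high in MI-E 3 while Tnf was not. Ccl4 was also high in MI-E 3, but it had no promoter window in the sources used here, and nor had Ccl5. Each line holds the 250 bases before the transcription start in RefSeq (GRCm38.p6), 5′ to 3′ on the strand of the gene. Capitals mark matches to the kappa-B consensus, the sequence that NF-kB binds, searched on both strands.
Cxcl2 promoter (chr5:90903649-90903898, plus strand): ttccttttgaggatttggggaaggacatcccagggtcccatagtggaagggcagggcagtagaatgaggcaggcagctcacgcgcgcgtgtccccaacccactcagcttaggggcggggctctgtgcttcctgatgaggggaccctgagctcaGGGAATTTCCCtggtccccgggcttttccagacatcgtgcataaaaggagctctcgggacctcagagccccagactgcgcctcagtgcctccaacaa
Ier3 promoter (chr17:35821463-35821712, plus strand): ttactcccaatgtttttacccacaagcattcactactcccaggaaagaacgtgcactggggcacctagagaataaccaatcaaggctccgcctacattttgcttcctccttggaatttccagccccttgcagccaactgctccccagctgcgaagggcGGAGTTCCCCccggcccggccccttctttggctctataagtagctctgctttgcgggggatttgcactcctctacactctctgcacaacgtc
Ccl3 promoter (chr11:83649379-83649628, minus strand): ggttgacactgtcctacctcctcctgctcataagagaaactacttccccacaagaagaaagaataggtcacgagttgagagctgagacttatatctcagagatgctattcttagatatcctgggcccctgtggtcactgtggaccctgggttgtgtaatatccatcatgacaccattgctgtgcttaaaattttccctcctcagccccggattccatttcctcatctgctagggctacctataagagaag
Tnf promoter (chr17:35202008-35202257, minus strand): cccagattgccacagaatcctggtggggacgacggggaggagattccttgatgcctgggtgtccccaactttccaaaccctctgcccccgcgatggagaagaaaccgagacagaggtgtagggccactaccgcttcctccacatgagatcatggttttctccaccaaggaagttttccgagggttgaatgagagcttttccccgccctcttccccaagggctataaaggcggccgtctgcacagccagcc
The Cxcl2 window held 2 overlapping matches, 97 and 96 bases before the start, which together form GGGAATTTCCC. The Ier3 window held 1 match, GGAGTTCCCC, 92 bases before the start. Of the 6 genes with a window, Ccl9 held GGAAAGCCCC 35 bases before its start, and Ccl3, Ccl6 and Tnf held none. A match was present in 7.25% of 32851 such windows of 27025 genes.

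The 27-base stretches richest in the motif ATTTA, the core of AU-rich elements, are shown for the 3′ UTRs of the same 4 genes. Capitals mark ATTTA, searched on the sense strand of GENCODE M21 transcripts (GRCm38), and neighbouring motifs may share a base.
Cxcl2 site (chr5:90905332-90905358, plus strand): ATTTAtctatgtATTTATTTATTTAtt
Ier3 site (chr17:35822479-35822505, plus strand): cgtgtctaattaatATTTAtgtATTTA
Ccl3 site (chr11:83648085-83648111, minus strand): tcttcacttgaaattttATTTAATTTA
Tnf site (chr17:35199681-35199707, minus strand): ttATTTAttATTTATTTAttATTTAtt
The whole 3′ UTR of Cxcl2 (734 bases) held 11 ATTTA motifs, and 0.0437% of the 2290 UTRs within 20% of its length, itself included, held as many. Tnf (764 bases) held 8, and 0.26% of 2310 UTRs of like length held as many. Cxcl2 and Tnf also held the longer element TTATTTATT, at 4 and 5 positions that overlap in part, and none of the other 6 genes did, against 6.51% of 19190 protein-coding genes. Ccl3 (409 bases) held 5, and 1.02% of 1864 UTRs of like length held as many. Ier3 (613 bases) held 5, and 2.68% of 2130 held as many. Ccl9 also held 5 ATTTA motifs, Ccl6 4, Ccl4 2 and Ccl5 none. For Ccl4 (302 bases), which was also high in MI-E 3, 11.6% of 1741 UTRs of like length held as many. The UTRs of Ccl9 (2465 bases) and Ccl6 (943 bases) were longer than those of Cxcl2 and Tnf, and 42.1% and 14.9% of UTRs of like length held as many motifs as theirs.

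The genes lie in 3 places on mm10 (GRCm38). The 5 CC chemokine genes share a stretch of chromosome 11: Ccl5 at chr11:83525778-83530518, Ccl9 at chr11:83572919-83578636, Ccl6 at chr11:83587882-83593087 and Ccl3 at chr11:83647844-83649355, all on the minus strand, and Ccl4 at chr11:83662584-83664683 on the plus strand. Tnf (chr17:35199381-35202007, minus strand) and Ier3 (chr17:35821684-35822923, plus strand) are both on chromosome 17, and Cxcl2 is at chr5:90903871-90905938 on the plus strand. No exon base of any of the 8 was shared with another annotated gene.

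Per unit of length, Ccl6, a chemokine that myeloid cells of the mouse make without a stimulus, was the most abundant of the 8 in every library. It averaged 444 ± 67.4 TPM over the 12 libraries (SD, n = 12) and its lowest value, 279 TPM, was above the highest of any other member, 134.7 TPM for Ccl5. Ccl5, a product of T cells and natural killer cells among others, averaged 93.8 ± 24.8 TPM, and Ccl9, which like Ccl6 binds Ccr1, averaged 63.6 ± 14.9 TPM. The ranges of these neighbours overlapped, 50.4 to 134.7 TPM for Ccl5 and 49.1 to 95.1 TPM for Ccl9. Ccl3 averaged 28.5 ± 17.7 TPM, Cxcl2 averaged 28.4 ± 31.5 TPM and Ier3 averaged 27.1 ± 11.5 TPM, and these 3 did not differ beyond their spread. Tnf averaged 11.2 ± 3.19 TPM and Ccl4 averaged 8.69 ± 9.7 TPM, and the ranges of these last genes also overlapped. The SD of Cxcl2 and of Ccl4 exceeded the mean; without MI-E 3, Cxcl2 averaged 19.7 ± 9.34 TPM and Ccl4 averaged 5.98 ± 2.54 TPM (SD, n = 11).

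Ccl3, a chemokine of activated macrophages and neutrophils, had 11.7, 40.1 and 14.3 CPM in MI-E libraries 2, 3 and 4, against 9.53, 5.65 and 5.67 CPM in MI libraries 1, 2 and 3. It had 7.35, 14.9 and 8.84 CPM in Sham-E libraries 1, 2 and 3, and 9.09, 12.2 and 9.81 CPM in Sham libraries 1, 3 and 4. Every MI-E library was above every MI library, whereas the Sham-E and Sham libraries overlapped. The log2 fold change of MI-E against MI was 1.66 ± 0.45 (SE; edgeR quasi-likelihood test, adjusted p = 0.129), and that of MI against Sham was -0.57 ± 0.44 (adjusted p = 0.496). Neither passed the threshold of 0.05 on p-values adjusted over all 15119 genes.

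Ccl4, the neighbour of Ccl3 on chromosome 11 and likewise a chemokine of activated macrophages, had the lowest mean level of the 8 in TPM, with 22 to 75 counts in 11 libraries and 321 counts in MI-E 3. It had 2.11, 15.3 and 2.55 CPM in MI-E libraries 2, 3 and 4, against 1.85, 1.24 and 1.09 CPM in MI libraries 1, 2 and 3. It had 1.04, 2.91 and 2.84 CPM in Sham-E libraries 1, 2 and 3, and 1.79, 2.83 and 1.07 CPM in Sham libraries 1, 3 and 4. MI-E and MI libraries did not overlap, but without MI-E 3 the remaining MI-E values lay within the Sham-E and Sham range. The log2 fold change of MI-E against MI was 2.25 ± 0.73 (edgeR, adjusted p = 0.168).

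Cxcl2, the neutrophil chemokine, had 30.5, 118 and 24.3 CPM in MI-E libraries 2, 3 and 4, against 16.2, 10.3 and 33.8 CPM in MI libraries 1, 2 and 3. It had 18.7, 20.5 and 13.2 CPM in Sham-E libraries 1, 2 and 3, and 10.5, 21.2 and 24.1 CPM in Sham libraries 1, 3 and 4. MI 3 lay above MI-E 2 and MI-E 4, so these groups overlapped, while every MI-E library was above every Sham-E library. The log2 fold change was 1.52 ± 0.62 for MI-E against MI (edgeR, adjusted p = 0.245) and 1.72 ± 0.62 for MI-E against Sham-E (adjusted p = 0.297).

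Ier3, induced early by stress and by NF-kB and known to affect cell survival, had 26.9, 51.9 and 24.5 CPM in MI-E libraries 2, 3 and 4, against 16.5, 17.8 and 20.4 CPM in MI libraries 1, 2 and 3. It had 20.7, 16.4 and 9.38 CPM in Sham-E libraries 1, 2 and 3, and 14.3, 15.7 and 13.6 CPM in Sham libraries 1, 3 and 4. All 3 MI-E libraries were above all 9 others, the nearest of which was Sham-E 1. The log2 fold change was 0.92 ± 0.30 for MI-E against MI (edgeR, adjusted p = 0.168) and 1.15 ± 0.30 for MI-E against Sham-E (adjusted p = 0.244). The MI libraries were also above the Sham libraries, with a log2 fold change of 0.33 ± 0.30 (adjusted p = 0.578).

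Tnf, the inflammatory cytokine itself, had 18.3, 14.3 and 17.4 CPM in MI-E libraries 2, 3 and 4, against 14.3, 17.3 and 10.02 CPM in MI libraries 1, 2 and 3. It had 18.2, 12.5 and 7.38 CPM in Sham-E libraries 1, 2 and 3, and 9.64, 12.7 and 7.66 CPM in Sham libraries 1, 3 and 4. MI-E and MI libraries overlapped, as did MI and Sham libraries. Unlike Ccl3, Ccl4, Cxcl2 and Ier3, Tnf was lowest among the MI-E libraries in MI-E 3. Its log2 fold change was 0.27 ± 0.30 for MI-E against MI (edgeR, adjusted p = 0.685) and 0.47 ± 0.31 for MI against Sham (adjusted p = 0.412).

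Ccl5 had 22.2, 20.3 and 25.8 CPM in MI-E libraries 2, 3 and 4, against 25.03, 14.03 and 18.9 CPM in MI libraries 1, 2 and 3. It had 11.03, 21.5 and 29.5 CPM in Sham-E libraries 1, 2 and 3, and 18.1, 25.4 and 19.1 CPM in Sham libraries 1, 3 and 4. The groups overlapped in every comparison of a pair, and its log2 fold changes in those lay between -0.11 and 0.24. The 12 T and natural killer cell markers summed to 124.1 to 155.4 CPM in MI-E, 99.1 to 142.9 CPM in MI, 159.1 to 180.3 CPM in Sham-E and 132.7 to 154.6 CPM in Sham.

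Ccl6 had 391, 430 and 330 CPM in MI-E libraries 2, 3 and 4, against 386, 333 and 386 CPM in MI libraries 1, 2 and 3. It had 215, 314 and 349 CPM in Sham-E libraries 1, 2 and 3, and 275, 342 and 259 CPM in Sham libraries 1, 3 and 4. Neighbouring groups overlapped, and the log2 fold change was 0.06 ± 0.19 for MI-E against MI (edgeR, adjusted p = 0.903) and 0.34 ± 0.19 for MI against Sham (adjusted p = 0.34).

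Ccl9 was the member with the smallest p-value in MI against Sham. It had 138, 153 and 126 CPM in MI libraries 1, 2 and 3, against 73.5, 98.3 and 81.2 CPM in Sham libraries 1, 3 and 4. It had 94.8, 158 and 94.7 CPM in MI-E libraries 2, 3 and 4, and 139, 84.7 and 85.0 CPM in Sham-E libraries 1, 2 and 3. MI and Sham libraries did not overlap, whereas MI-E 2 and MI-E 4 lay within the Sham range and MI-E 3 above all others. The log2 fold change of MI against Sham was 0.72 ± 0.24 (edgeR, adjusted p = 0.131), and that of MI-E against MI was -0.26 ± 0.24 (adjusted p = 0.597). On log2(TPM + 1), which also takes in the lengths of the transcripts assigned, the MI against Sham value was 0.34 (limma, adjusted p = 0.441), and the TPM ranges overlapped, 51.0 to 95.1 in MI and 49.1 to 66.96 in Sham. The 9 monocyte markers summed to 3664 to 5419 CPM in MI, 2610 to 3031 CPM in Sham, 3797 to 4248 CPM in MI-E and 2693 to 6084 CPM in Sham-E, where Sham-E 1 was highest for these markers as it was for Ccl9. The part of monocytes in the Ccl9 values was not tested.

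**Figure D1:**
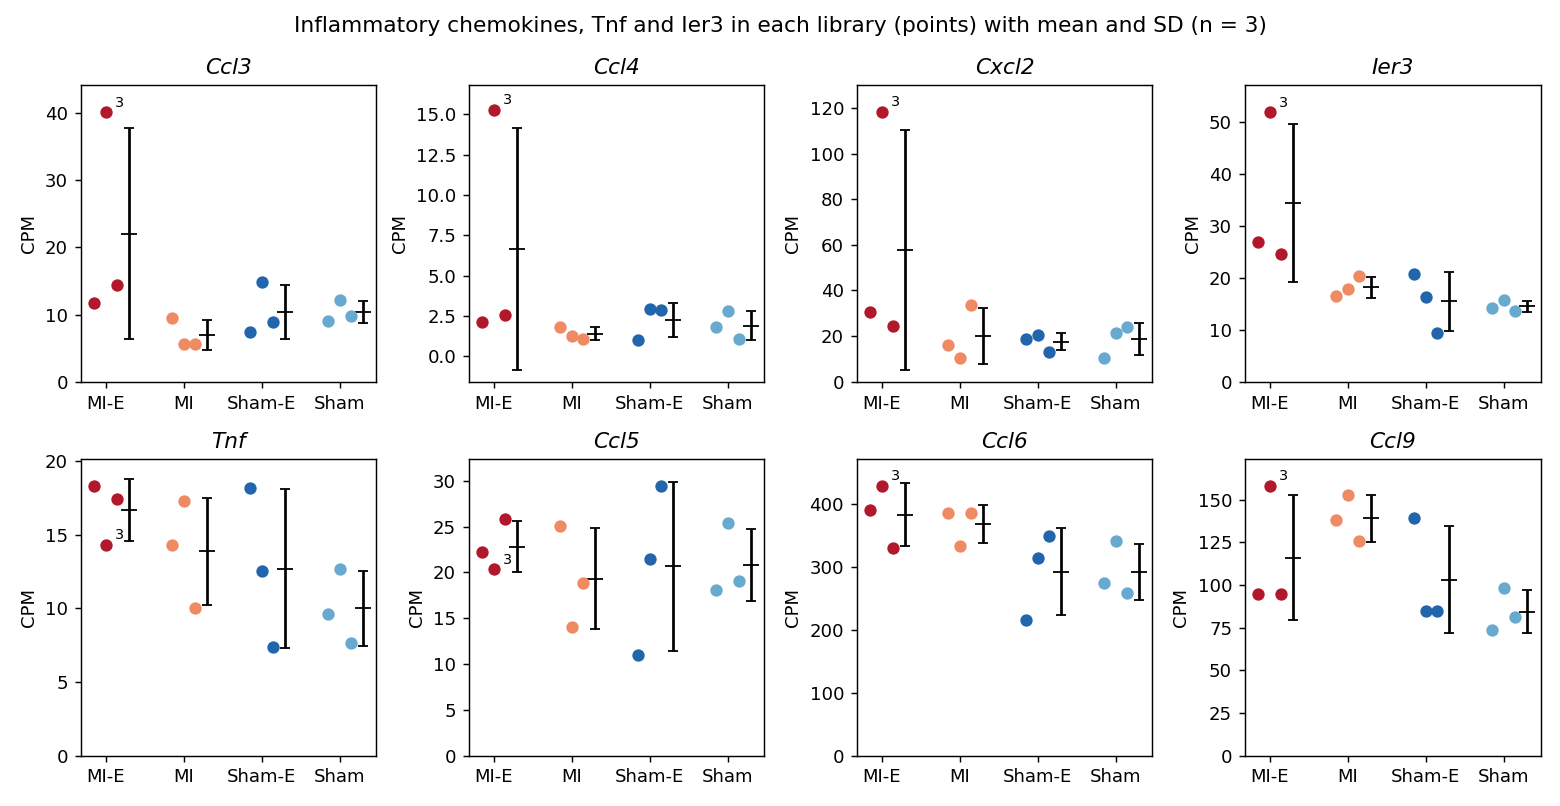
Level of each gene in CPM (counts scaled by the TMM-scaled library size, linear axis) in the 3 libraries of MI-E, MI, Sham-E and Sham, one point per library, with the mean and SD beside them (the MI-E bar of Ccl4 runs below 0). The point marked 3 is library MI-E 3, at 40.1 CPM for Ccl3, 15.3 for Ccl4, 118 for Cxcl2 and 51.9 for Ier3, against 14.3 CPM for Tnf.

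The effect of EMPA after infarction was read from MI-E against MI. None of the 8 genes passed edgeR's test, in which 0.00661% of all genes (1 gene) passed. At an unadjusted p under 0.05, 4 of the 8 were higher in MI-E (Ccl3, Ccl4, Cxcl2 and Ier3), against 8.52% of all genes, and none was lower. In either direction 17.4% of all genes had such a p. Log2 fold changes were positive for 7 of the 8, all but Ccl9, and for 47.6% of all genes. The libraries of MI-E all lay above those of MI for 3 of the 8 (Ccl3, Ccl4 and Ier3), against 11.6% of all genes. The median log2 fold change was 0.59 over the 8 genes and -0.02 over all genes tested. DESeq2 called 2 of the 8, Ccl3 (log2 fold change 1.66, adjusted p = 0.0101) and Ccl4 (2.25, adjusted p = 0.0309), where it called 1.98% of all genes. DESeq2 was run without the filter on low counts, so its shares are of 24952 genes. They are therefore not on the same base as the edgeR shares.

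These values rested in large part on MI-E 3. Without that library, which was left out after its values were seen, the edgeR log2 fold changes of MI-E against MI were 0.90 ± 0.33 for Ccl3 (adjusted p = 0.278), 0.74 ± 0.52 for Ccl4 (adjusted p = 0.524), 0.45 ± 0.46 for Cxcl2 (adjusted p = 0.685) and 0.50 ± 0.26 for Ier3 (adjusted p = 0.411). Only Ccl3 then had an unadjusted p under 0.05 among genes higher in MI-E, as did 7.12% of all genes. Ccl9, at -0.55 ± 0.22 (edgeR, adjusted p = 0.319), had one with a lower level in MI-E, as did 6.7% of all genes. DESeq2 without MI-E 3 gave adjusted p-values of 0.181 for Ccl3 and 0.543 for Ccl4 and called none of the 8. The log2 fold changes of Ccl3, Ccl4, Cxcl2 and Ier3 were still positive, while that of Ccl6 was -0.03, against 0.06 with all libraries. In MI-E 2 and MI-E 4, Ccl3, Ccl4, Ier3 and Tnf were each above every MI library, where 16.9% of all genes lay so, and Cxcl2 was below MI 3 in both.

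MI-E 3 had 8.28 times the median of the other 11 libraries for Ccl4, the third largest such ratio among 11800 genes with a mean of at least 2 CPM. The ratio was 5.77 for Cxcl2, 4.21 for Ccl3 and 3.16 for Ier3, at ranks 7, 16 and 30. Ccl9 had a ratio of 1.67 and rank 279, Ccl6 of 1.29 and rank 1541, Tnf of 1.13 and rank 3419, and Ccl5 of 0.946 and rank 7077. MI-E 3 held the highest value of 7.99% of all genes tested, within the 3.2% to 20.1% of the other libraries. The 20 immediate early genes, transcription factors and phosphatases induced within minutes of a stimulus, moved with these values: their summed level was 5998 CPM in MI-E 3 and 1624 to 3567 CPM in the other 11 libraries. Their part in the values of MI-E 3 was not tested. Neutrophil markers summed to 58530 CPM in MI-E 3, against 40130 and 39660 CPM in MI-E 2 and MI-E 4. They summed to 60620 and 58870 CPM in MI 1 and MI 2. The part of neutrophils in the values of MI-E 3 was not tested either.

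**Figure D2:**
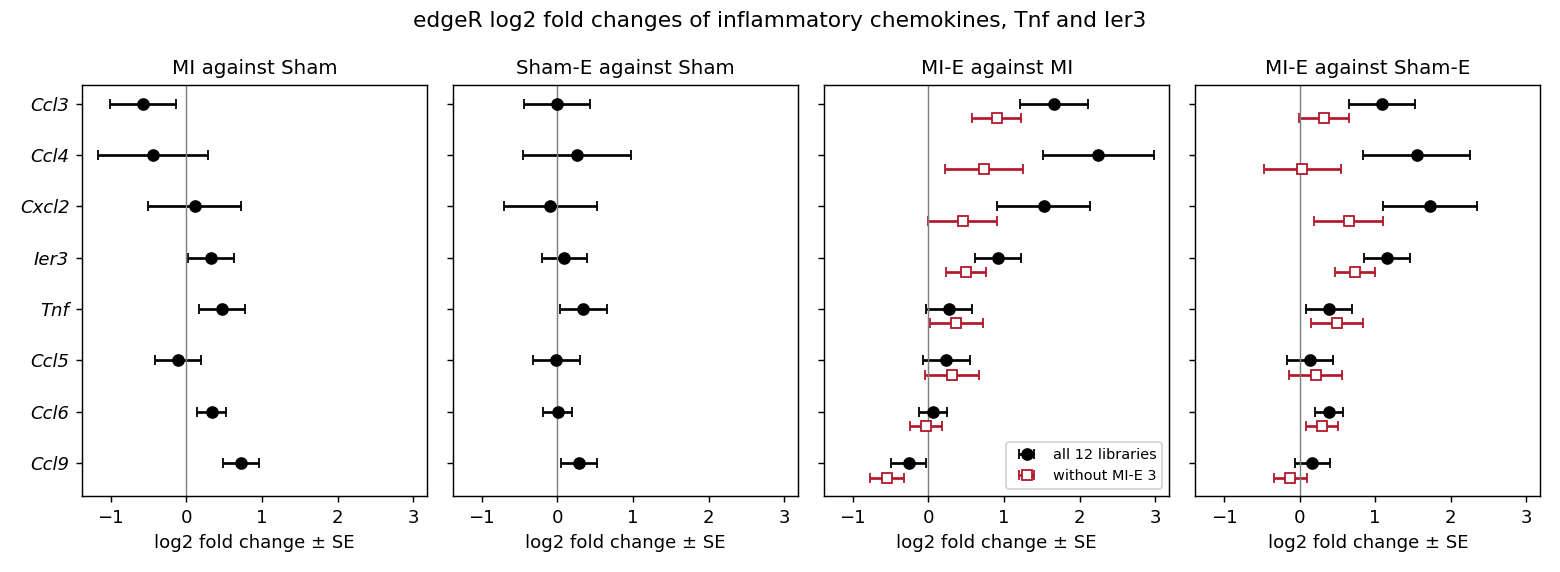
edgeR log2 fold change (linear axis of log2 units) with its SE for each gene in MI against Sham, Sham-E against Sham, MI-E against MI and MI-E against Sham-E, from all 12 libraries (filled circles) and, where MI-E enters, without MI-E 3 (open squares). Leaving out MI-E 3 moved Ccl4 in MI-E against MI to 0.74, against 2.25 with all libraries, and left Tnf at 0.37, against 0.27.

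Infarction without EMPA, MI against Sham, gave no call among the 8 genes by edgeR or DESeq2, where edgeR called 0.417% of all genes and DESeq2 3.84%. At an unadjusted p under 0.05, 1 of the 8 was called, Ccl9, against 19.5% of all genes. Ccl9 and Ier3 were the 2 genes whose MI libraries all lay above the Sham libraries, against 13.4% of all genes. The median log2 fold change of the 8 was 0.22, with 5 of 8 positive, and 52.4% of all genes were positive. When Sham-E 1 was left out of the joint fit, edgeR called Ccl9 (log2 fold change 0.72, adjusted p = 0.0411) with 7.9% of all genes, although that library is in neither group. DESeq2 without MI-E 3 likewise called Ccl9 (0.715, adjusted p = 0.0327), with 3.32% of all genes.

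EMPA in sham-operated mice, Sham-E against Sham, gave no value past a log2 fold change of 0.34, which was that of Tnf (± 0.31, edgeR adjusted p = 1.0). Values were positive for 6 of 8, against 52.5% of all genes. None of the 8 was called by edgeR, which called 0.0% of all genes, or by DESeq2, which called 0.00802%. None had an unadjusted p under 0.05, against 1.9% of all genes, and none was without overlap between the groups, against 8.98%. The SE of Cxcl2 was 0.61 and that of Ccl4 0.71 on the log2 scale, so changes of that size could not be told from no change in these genes.

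Infarction under EMPA, MI-E against Sham-E, shares its MI-E libraries with the comparison of MI-E and MI. edgeR called none of the 8 and 0.0% of all genes. At an unadjusted p under 0.05, 4 of 8 were higher, against 5.99% of all genes, with log2 fold changes of 1.72 ± 0.62 for Cxcl2, 1.55 ± 0.71 for Ccl4, 1.15 ± 0.30 for Ier3 and 1.09 ± 0.44 for Ccl3. Cxcl2 and Ier3 did not overlap between the groups, against 11.7% of all genes. DESeq2 called Ier3 (1.15, adjusted p = 0.0417), with 0.585% of all genes. Without MI-E 3, Ier3 was at 0.73 ± 0.26 (edgeR, adjusted p = 0.509; DESeq2, adjusted p = 0.417), Cxcl2 at 0.65 ± 0.46, Ccl3 at 0.32 ± 0.33 and Ccl4 at 0.04 ± 0.51. Ier3 alone then had an unadjusted p under 0.05 and a higher level, as did 4.31% of all genes, and MI-E 2 and MI-E 4 were above every Sham-E library for Cxcl2 and Ier3, against 17.5% of all genes.

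Whether EMPA differed in its effect between infarcted and sham-operated mice was tested by the interaction, in which the log2 change between Sham-E and Sham is subtracted from that between MI-E and MI. It was 1.66 ± 0.62 for Ccl3 (edgeR, adjusted p = 0.31), 1.99 ± 1.01 for Ccl4 (adjusted p = 0.407), 1.61 ± 0.86 for Cxcl2 (adjusted p = 0.427) and 0.83 ± 0.43 for Ier3 (adjusted p = 0.41). None of the 8 was called by edgeR, which called 0.00661% of all genes, or by DESeq2, which called 0.561%. Ccl3 alone had an unadjusted p under 0.05, as did 13.5% of all genes, 6.22% with a positive value. Values were positive for 6 of 8, against 47.0% of all genes. Without MI-E 3 the value of Ccl3 was 0.90 ± 0.44 (adjusted p = 0.448), and none of the 8 had an unadjusted p under 0.05 and a positive value, against 5.53% of all genes. Ccl9 then had the smallest p of the 8, at -0.84 ± 0.30 (edgeR, adjusted p = 0.391), against -0.55 ± 0.33 with all libraries (edgeR, adjusted p = 0.473). Its unadjusted p was then under 0.05, and 6.1% of all genes had such a p and a negative value.

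The deposited counts and TPM values of a gene together give the mean length of the transcripts to which its reads were assigned. For Tnf this length was 1634 to 1640 bases in every library, close to the annotated full transcript of 1639 bases. For Cxcl2 it was 1470, 1194 and 1384 bases in MI-E libraries 2, 3 and 4, against 1565, 2022 and 1306 bases in MI libraries 1, 2 and 3. It was 1859, 1383 and 1407 bases in Sham-E libraries 1, 2 and 3, and 2048, 1519 and 1377 bases in Sham libraries 1, 3 and 4. MI-E 3, with the highest Cxcl2 level, was nearest to the short spliced transcript of 1109 bases. Sham 1 and MI 2, with the lowest levels, were nearest to a transcript of 2066 bases that is annotated as retaining an intron. A shorter mean length raises TPM for a given count, so Cxcl2 ranged from 6.8 to 124.2 TPM, a wider span than its 10.3 to 118 CPM. For Ccl9 the length was 3007 bases in MI 3 and 1955 to 2466 bases in the other 11 libraries, where the annotated full transcript has 3006 bases.

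**Figure D3:**
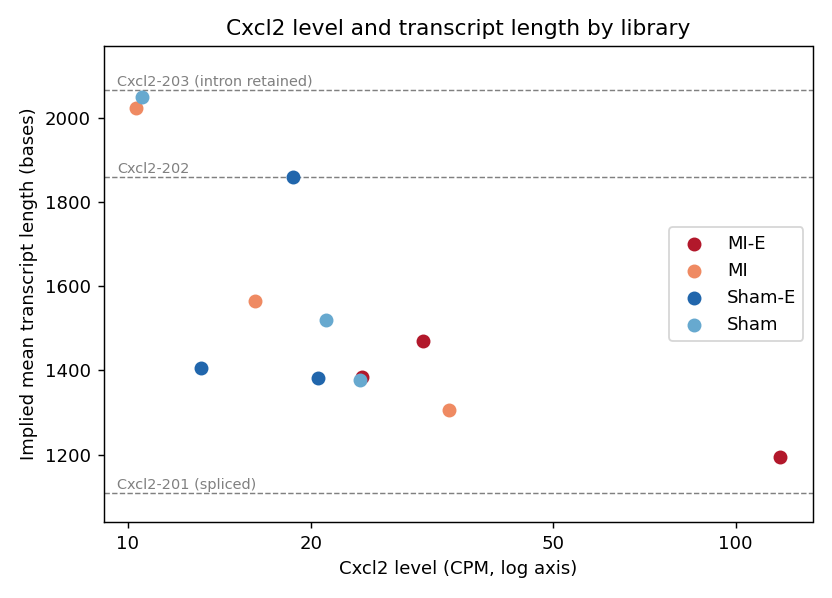
Mean length in bases of the transcripts assigned to Cxcl2 (vertical, linear axis not from 0) against its level in CPM (horizontal, log axis), one point per library, coloured by group; dashed lines are annotated transcripts of 1109, 1859 and 2066 bases. MI-E 3 is the point at 118 CPM and 1194 bases, and MI 2 and Sham 1 are the points at 10.3 and 10.5 CPM, with 2022 and 2048 bases.

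Among themselves, the genes most alike across the 12 libraries were Ccl3 and Ccl4, with a Pearson correlation of log2 CPM of 0.92, and 0.76 without MI-E 3. Cxcl2 and Ier3 had 0.82 with all libraries and 0.55 without MI-E 3, and Ccl3 and Cxcl2 had 0.74 and 0.26. Tnf and Ier3, by contrast, had 0.62 with all libraries and 0.81 without MI-E 3. These correlations describe 12 libraries that share groups and depth, and carry no test. Of 11102 genes compared, Ccl3 was most like Klf2, an immediate early transcription factor (0.93, and 0.86 without MI-E 3), and Cxcl2 was most like Rgs1, a regulator of G-protein signalling (0.945 and 0.93). Ccl9 was most like Itgb1bp1 (0.955) and Rnh1 (0.95), Tnf most like Hps6 (0.92) and Pla2g3 (0.92), and Ier3 most like Oaz2 (0.90) and Yrdc (0.89). Ccl4 was most like Ccl3 and then Arl4c (0.90), Ccl5 most like Zfp653 (0.90) and Stk25 (0.90), and Ccl6 most like Smap2 (0.90) and Faah (0.89).

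Among the receptors of these ligands, Ccr1, which binds Ccl3, Ccl5, Ccl6 and Ccl9, averaged 213 ± 25.9 CPM in MI-E, 296 ± 47.8 CPM in MI, 182 ± 60.7 CPM in Sham-E and 148 ± 27.7 CPM in Sham (SD, n = 3 each). Every MI library was above every Sham library for Ccr1, and its log2 fold change of MI against Sham was 1.00 ± 0.23 (edgeR, adjusted p = 0.062), short of the threshold. Cxcr2 averaged 277 ± 15.3 CPM in MI-E, 406 ± 166 CPM in MI, 314 ± 38.6 CPM in Sham-E and 295 ± 29.4 CPM in Sham. Its log2 fold change of MI-E against MI, -0.55 ± 0.23 (edgeR, adjusted p = 0.246), had the opposite sign to that of its ligand Cxcl2. Of 16 chemokine receptors tested, none passed by edgeR in any of the 5 comparisons, and 1 higher and 1 lower had an unadjusted p under 0.05 in each of MI-E against MI and MI against Sham. In either direction 17.4% and 19.5% of all genes had such a p there. The share of all genes that DESeq2 called was 1.98% in MI-E against MI, 3.84% in MI against Sham and 0.585% in MI-E against Sham-E. DESeq2 called Cxcr5 higher in MI-E against MI, though not without MI-E 3, Ccr1 higher in MI against Sham, and Cx3cr1 lower in MI against Sham and in MI-E against Sham-E, the last of these not without MI-E 3. The median log2 fold change was -0.10 in MI-E against MI and 0.07 in MI against Sham.

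Of the list of Tnf release and receptors, which also holds Ltb and Birc3, 0 of 11 passed edgeR's test in each comparison. In MI-E against MI, Ltb was higher and Birc3 lower at an unadjusted p under 0.05, where 17.4% of all genes had such a p. Neither had such a p once MI-E 3 was left out. In the interaction 4 of 11 were lower at that level and 0 higher, where 13.5% of all genes had such a p. Without MI-E 3, 2 were lower there, against 6.1% of all genes. DESeq2 called 1 of the 11, Birc3, an inhibitor of apoptosis that NF-kB induces, higher in MI against Sham, where it called 3.84% of all genes. Tnfrsf1a averaged 163 ± 19.1 CPM in MI-E, 183 ± 51.7 CPM in MI, 178 ± 36.3 CPM in Sham-E and 151 ± 7.87 CPM in Sham, and Tnfrsf1b averaged 128 ± 8.07 CPM in MI-E, 151 ± 12.1 CPM in MI, 159 ± 28.7 CPM in Sham-E and 136 ± 11.01 CPM in Sham. Adam17, which sheds Tnf, averaged 62.2 ± 4.05 CPM in MI-E, against 79.5 ± 22.2 CPM in MI, with a log2 difference of -0.35 ± 0.18 (edgeR, adjusted p = 0.32). In Sham-E it averaged 87.03 ± 13.95 CPM, above MI-E in every library, with a log2 fold change of MI-E against Sham-E of -0.485 ± 0.177 (edgeR, adjusted p = 0.297). The 19 NF-kB subunits and induced genes had a median log2 fold change of 0.15 in MI-E against MI, with 13 positive, and of -0.09 without MI-E 3. None passed edgeR's test in any comparison, and with all libraries none had an unadjusted p under 0.05 in MI-E against MI. With MI-E 3 left out, 2 of the 19 had such a p there and a lower level, as did 6.7% of all genes, and none a higher level. Nfkbia, the NF-kB inhibitor that NF-kB itself induces, had 177.7, 147.6 and 104.8 CPM in MI-E, against 180.5, 125.3 and 197.7 CPM in MI. In Sham it had 86.8, 117.8 and 97.6 CPM, below every MI library, with a log2 fold change of MI against Sham of 0.74 ± 0.21 (edgeR, adjusted p = 0.0989); DESeq2 called it there and no other gene of the list in any comparison.

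The immediate early genes had a median log2 fold change of 1.27 in MI-E against MI, with 18 of 20 positive, against 47.6% of all genes, and of 0.70 without MI-E 3. Of the 20, 12 were higher at an unadjusted p under 0.05, against 8.52% of all genes, and without MI-E 3 9 were higher, against 7.12%, and 1 lower. None of the 20 passed the adjusted threshold in edgeR, whereas DESeq2 called 10 of 20 higher, against 1.98% of all genes called in either direction, and 2 without MI-E 3 (Fosb and Junb). Junb, a subunit of the transcription factor AP-1, had 431.3, 878.6 and 455.7 CPM in MI-E libraries 2, 3 and 4, against 255.9, 162.2 and 136.9 CPM in MI libraries 1, 2 and 3. These did not overlap, and the log2 fold change was 1.67 ± 0.31 (edgeR, adjusted p = 0.0847), and 1.26 ± 0.26 without MI-E 3 (adjusted p = 0.193). In Sham, Junb had 360.5, 456.9 and 376.5 CPM, so MI-E 2 and MI-E 4 lay within the Sham range. Dusp1, a phosphatase that switches off MAP kinases, had 351.2, 766.9 and 233.5 CPM in MI-E libraries 2, 3 and 4, against 168.2, 103.0 and 187.5 CPM in MI libraries 1, 2 and 3. It had 125.1, 259.2 and 253.0 CPM in Sham. In MI against Sham the list had a median of -0.96, with 4 of 20 positive, and DESeq2 called 7 lower, against 3.84% of all genes called in either direction, whereas Ier3 was positive there and was not called.

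Of 8 genes of AU-rich messenger decay, 5 had an unadjusted p under 0.05 and a higher level in MI-E than in MI, against 8.52% of all genes, and 2 of 8 without MI-E 3, against 7.12%. None passed the adjusted threshold in edgeR. DESeq2 called 2 of them, Zfp36 and Khsrp, higher in MI-E against MI, with 1.98% of all genes, and lower in MI against Sham, with 3.84%. It called Khsrp alone of the list in MI-E against MI without MI-E 3. It also called Hnrnpd higher in MI-E against Sham-E, with 0.585% of all genes, and Zfp36 higher in the interaction, with 0.561%. Neither of these was called without MI-E 3. Zfp36 had 473.8, 829.0 and 430.4 CPM in MI-E libraries 2, 3 and 4, against 291.3, 213.7 and 125.5 CPM in MI libraries 1, 2 and 3. The groups did not overlap, and the log2 fold change was 1.46 ± 0.33 (edgeR, adjusted p = 0.107), and 1.11 ± 0.31 without MI-E 3 (adjusted p = 0.235). In Sham, Zfp36 had 381.7, 541.4 and 523.7 CPM, so MI-E 2 and MI-E 4 lay within the Sham range. Khsrp, another protein that speeds the decay of such messengers, had a log2 fold change of 0.58 ± 0.14 (adjusted p = 0.112). By edgeR, Zfp36 was lower in MI than in Sham (log2 fold change -1.20 ± 0.33, adjusted p = 0.0945), which did not pass. In that comparison 5 of the 8 genes were positive, among them Tnf at 0.47 ± 0.31 and Cxcl2 at 0.11 ± 0.61. Ccl3 at -0.57 ± 0.44, Ccl4 at -0.44 ± 0.73 and Ccl5 at -0.11 ± 0.31 were negative. None of the 8 passed there, and the part of Zfp36 in their values was not tested.

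Other inflammatory cytokines, listed together with the enzyme gene Ptgs2, differed in whether they shared the high value of MI-E 3. Osm, a cytokine of the interleukin-6 family made by myeloid cells, had 46.6, 163.6 and 48.2 CPM in MI-E libraries 2, 3 and 4, against 35.1, 41.8 and 16.4 CPM in MI libraries 1, 2 and 3. It had 46.4, 69.1 and 70.4 CPM in Sham, so MI-E 2 and MI-E 4 lay within the Sham range. Ptgs2, the inducible cyclooxygenase, had 1.65, 15.4 and 3.50 CPM in MI-E libraries 2, 3 and 4, against 1.13, 0.496 and 1.28 CPM in MI libraries 1, 2 and 3. It had 9.6, 13.1 and 15.3 CPM in Sham, so the high Ptgs2 value of MI-E 3 was at the level of Sham libraries. Ccl2, the monocyte chemokine, had 0.719, 4.77 and 0.865 CPM in MI-E libraries 2, 3 and 4, against 0.378, 0.942 and 0.691 CPM in MI libraries 1, 2 and 3. Il1rn, the interleukin-1 receptor antagonist, was not among them, with 23.1 CPM in MI-E 3 and a median of 41.5 CPM in the other 11 libraries. No gene of the cytokine list or of the other chemokine lists passed edgeR's test in any comparison. Of 9 genes tested from the cytokine list, Ptgs2 included, 3 were higher and 1 lower at an unadjusted p under 0.05 in MI-E against MI. There 8.52% of all genes were higher and 17.4% had such a p in either direction. Without MI-E 3, none was higher and 1 was lower, against 7.12% and 6.7% of all genes. Of the other chemokines, 2 of 5 CC genes and 1 of 10 CXC, CX3C and XC genes were higher at that level, against the same 8.52%. Without MI-E 3 these were 1 of 5 and 1 of 11, against 7.12%. DESeq2 called Osm higher in MI-E against MI, with 1.98% of all genes, and no gene of the cytokine list there without MI-E 3. It called Ptgs2 and the chemokine Ccl27a lower in MI against Sham, with 3.84% of all genes. Without MI-E 3 it called Osm and Ptgs2 lower there, with 3.32% of all genes, and not Ccl27a. In MI-E against Sham-E, where it called 0.585% of all genes, it called Pf4 higher and Cxcl9 and Cxcl10 lower. Of these, Cxcl10 alone was called without MI-E 3.

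**Figure D4:**
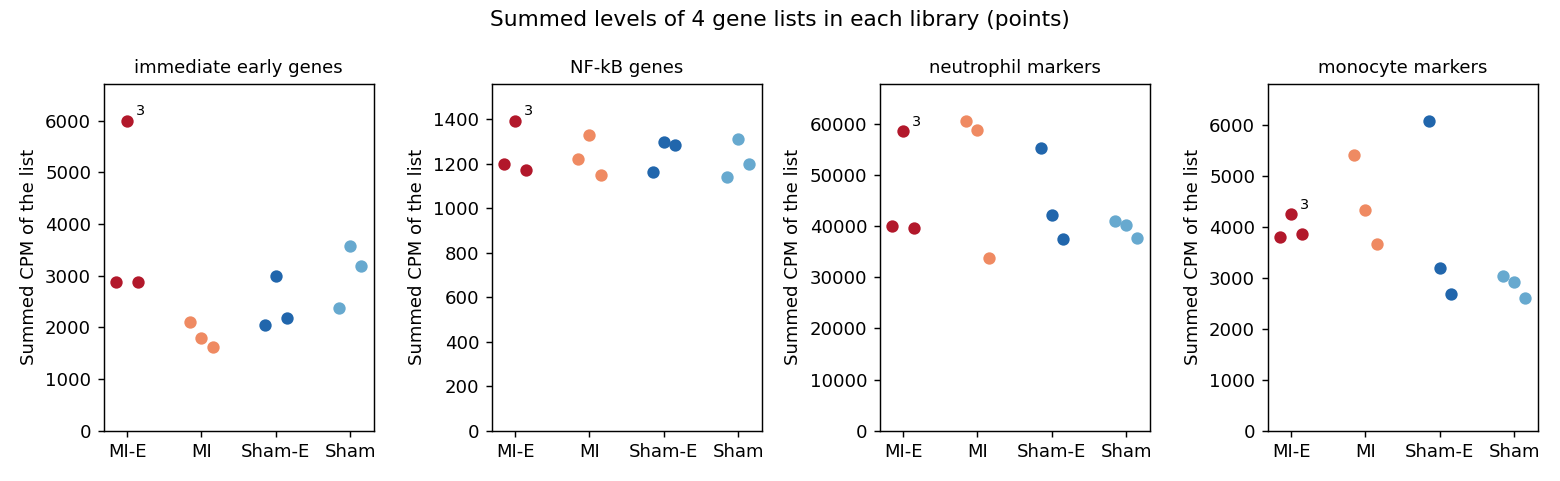
Summed level in CPM (linear axes from 0) of 4 gene lists in each library of MI-E, MI, Sham-E and Sham, one point per library, with MI-E 3 marked 3. For the immediate early genes MI-E 3 stands at 5998 CPM above 1624 to 3567 CPM in the others. For the NF-kB genes it is also highest, at 1393 CPM against 1141 to 1330 CPM in the others. For neutrophil and monocyte markers MI-E 3 lies within the range of the other libraries but is the highest of the MI-E libraries. Its neutrophil markers sum to 58530 CPM, against 40130 and 39660 CPM in MI-E 2 and MI-E 4.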

How the data were processed

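Per the file headers, the authors deposited 1 table of expected counts per gene, made without scaling, and 1 table of TPM values, both for 53801 genes and 12 libraries. The deposited counts are whole numbers, RSEM being the one quantifier named; the deposited TPM values are scaled for transcript length and to a common total. Build mm10 and the tools STAR 2.4.0j, RSEM and CASAVA 1.8 come from the submitters' processing notes; whether the libraries keep strand is not given in the sources used here. Column names carry a group and a number; those of Sham and MI-E were matched to their group alone, the others to single samples.

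Genes were kept by filterByExpr (15119 genes) and scaled by TMM (factors 0.94 to 1.06). In edgeR 4.0.16 under R 4.3.3, all 12 libraries entered 1 quasi-likelihood model with a mean per group, which left 8 residual degrees of freedom. Benjamini-Hochberg adjustment covered the whole of the genes tested, and the threshold was 0.05. The script was tested on simulated data. Each SE was taken by dividing a log2 fold change by the square root of its F value. CPM values are counts over the TMM-scaled library size. DESeq2 1.42.0, limma 3.58.1 and each library left out in turn were alternatives. The DESeq2 shares are of 24952 genes, or 24752 without MI-E 3, and include genes that filterByExpr left out. Named genes were all 8 genes, a fixed set of receptors, of which some values are not reported here, and from each pathway list any gene past the threshold and the 2 with the smallest p in each comparison. The genes and lists were chosen with earlier results of these data known. With 3 libraries against 3, a single-gene permutation test cannot go below p = 0.1, so none was used.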

Additional observations from a re-analysis of the deposited data

How the results depend on the processing

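Genes called over the whole table depended on the tool. In MI against Sham 63 genes were called by edgeR, against 958 by DESeq2, 821 by DESeq2 without MI-E 3, 344 in a fit to the 2 groups alone, 269 and 282 by limma on log2(TPM + 0.1) and log2(TPM + 1), 156 without the filter, 104 with library totals alone and 39 by limma-voom. The counts in MI-E against MI were 1 by edgeR and 493, 167, 3, 67, 50, 33 and 2 by the first 7 of these in the same order. MI-E against Sham-E gave 0 by edgeR, 146 by DESeq2 and 12 by DESeq2 without MI-E 3; Sham-E against Sham gave 0, 2 and 3. The interaction gave 1, 140 and 68, then 14 and 7 by limma on TPM and 0 by limma-voom. Leaving out each library in turn gave 1 to 1224 calls in MI against Sham, 1 to 988 in MI-E against MI, 0 to 117 in MI-E against Sham-E and 1 to 150 in the interaction. Of the 8 genes, DESeq2 called 2 in MI-E against MI and 1 in MI-E against Sham-E, DESeq2 without MI-E 3 called 1 in MI against Sham, and leaving out each library in turn gave 0 to 1 in MI against Sham. DESeq2 without MI-E 3 was added after the data were seen, as were the counts without overlap and list medians without MI-E 3.

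Column numbers as a replicate block left 1 call in MI against Sham and 0 in the interaction, and none of the 8 genes was called. The deviations of 13 same-number pairs from their group means correlated at -0.206 to 0.15, with a median of -0.007, against a median of -0.001 for other pairs. With 3 libraries per group, these values cannot show whether libraries of the same number were paired.

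Of 872 alternative log2 fold changes of the 8 genes, 71 changed sign, 38 of them in Sham-E against Sham, and none of these was called. In Sham-E against Sham, Ccl3 (0.00) became -0.002 with DESeq2, with or without MI-E 3, and with its size factors in edgeR, -0.003 without the filter, -0.008 in the fit to the groups alone, -0.032 with library totals, -0.042 with voom, -0.05 with the block, and -0.095 and -0.089 on TPM. Ccl6 there became -0.034 with totals, -0.016 with voom, -0.07 on both TPM scales, -0.004 in the fit to the groups alone and -0.083 with the block; Ccl5 became 0.025 and Cxcl2 0.17 with the block, Cxcl2 0.044 and 0.032 on TPM, and Ier3 -0.007 and -0.004 on TPM. In MI against Sham, Cxcl2 became -0.015 with totals and -0.12 and -0.11 on TPM. In MI-E against MI, Ccl6 became -0.035 with DESeq2 without MI-E 3 and -0.10 on TPM; in MI-E against Sham-E, Ccl9 became -0.13 with DESeq2 without MI-E 3 and -0.23 and -0.23 on TPM. In the interaction, Ccl6 became -0.037 with DESeq2 without MI-E 3 and -0.034 on TPM, and Tnf became 0.01 with totals, 0.02 with DESeq2 without MI-E 3, 0.008 with voom and 0.33 with the block. With each library left out in turn, the ranges that cross 0 were, in Sham-E against Sham, -0.37 to 0.20 for Ccl3, -0.032 to 0.66 for Ccl4, -0.36 to 0.29 for Ccl5, -0.14 to 0.18 for Ccl6, -0.38 to 0.14 for Cxcl2, -0.17 to 0.35 for Ier3 and -0.005 to 0.62 for Tnf. They were -0.35 to 0.072 for Ccl5 and -0.49 to 0.42 for Cxcl2 in MI against Sham, -0.029 to 0.16 for Ccl6 in MI-E against MI, -0.16 to 0.48 for Ccl5 and -0.12 to 0.45 for Ccl9 in MI-E against Sham-E, and -0.05 to 0.60 for Ccl5, -0.12 to 0.20 for Ccl6 and -0.35 to 0.27 for Tnf in the interaction. The cause was not tested. With 22 to 75 counts in 11 libraries, Ccl4 was the gene most limited by depth.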

Other observations

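Of the chemokines of platelets and their marrow precursors, Ppbp had a pattern that Pf4 shared only in part. Ppbp, the precursor of a platelet chemokine that binds Cxcr2, had 49.6, 49.0 and 48.5 CPM in MI-E libraries 2, 3 and 4, against 28.4, 13.7 and 5.97 CPM in MI libraries 1, 2 and 3. It had 14.2, 4.43 and 21.2 CPM in Sham-E libraries 1, 2 and 3, and 43.0, 3.82 and 45.1 CPM in Sham libraries 1, 3 and 4. The MI-E libraries were within 2 CPM of each other and above all others, and unlike Cxcl2 they did not single out MI-E 3. Pf4, the other major platelet chemokine, had 38.0, 28.45 and 21.9 CPM in MI-E libraries 2, 3 and 4. It had 24.4, 9.47 and 14.4 CPM in MI libraries 1, 2 and 3, so these groups overlapped. The log2 fold change of MI-E against Sham-E was 1.88 ± 0.82 for Ppbp (edgeR, adjusted p = 0.356) and 1.76 ± 0.55 for Pf4 (adjusted p = 0.272), so neither passed. DESeq2 called Pf4 there with all libraries and not without MI-E 3. All 9 megakaryocyte markers, which include both genes, had a positive log2 fold change in MI-E against Sham-E, as did 50.4% of all genes. The median of the markers was 1.103, and 1.17 without MI-E 3. Their part in the Ppbp and Pf4 values was not tested.

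Cx3cr1, the fractalkine receptor of patrolling monocytes, had 10.4, 14.6 and 16.5 CPM in MI-E and 17.2, 21.4 and 5.87 CPM in MI. It had 32.7, 38.3 and 37.2 CPM in Sham-E and 36.4, 43.5 and 35.4 CPM in Sham. All 6 libraries after infarction were below all 6 after the sham operation, for which no share of all genes was taken. By pairs of groups, 2093 of 15119 genes lay lower without overlap in MI against Sham, and 1838 in MI-E against Sham-E. The log2 fold change of Cx3cr1 was -1.38 ± 0.35 for MI-E against Sham-E (edgeR, adjusted p = 0.244) and -1.38 ± 0.35 for MI against Sham (adjusted p = 0.0822), neither past the threshold. DESeq2 called both, with 0.585% and 3.84% of all genes. Without MI-E 3 it called only the second, with 3.32% of all genes.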
